A study of Homo sapiens with 12 samples.

Results

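The genes of the cytoplasmic translation initiation factors (eIF) and elongation factors (eEF) were followed in HK-2 cells, an immortalized line of human kidney proximal tubule epithelium, after exposure to nephrotoxic drugs. Members were the protein-coding genes of the count table whose symbol starts with EIF and a digit from 1 to 6 or with EEF and a digit 1 or 2, without the eIF2 alpha kinases EIF2AK1 to EIF2AK4, and 67 of the 58735 genes met this rule. The 12 samples formed 4 groups of 3: a control group given water, and groups treated for 48 h with iohexol (an iodinated X-ray contrast agent, 75 mg I/mL), cisplatin (a platinum compound that crosslinks DNA, 5 μM) or vancomycin (a glycopeptide antibiotic, 4 mM). All cells were of the same line, so the groups differ by drug and not by donor, and drug identity is tied to its dose and its chemistry. The labels number the samples of a group but do not say that they came from separate cultures, so that the p-values measure the spread between these samples, which may be technical.

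Initiation begins when eIF2 brings the initiator tRNA to the small ribosomal subunit, with eIF1, eIF1A, eIF3 and eIF5 helping it to read the start codon, while the eIF4 factors bind the cap of the mRNA and unwind its leader. Elongation then depends on eEF1A, which delivers aminoacyl-tRNA, and on eEF2, which moves the ribosome along the message, and both are among the most abundant proteins of most cells. The activity of several of these factors is set by phosphorylation, which mRNA counts do not measure: the eIF2 alpha kinases act on eIF2, mTORC1 acts on the eIF4E-binding proteins, and the kinase eEF2K inhibits eEF2.

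The libraries held 14057282 to 18177109 counts. Of all counts the members took 1.71 to 1.72% in controls. Their share was 1.55 to 1.65% after iohexol and 1.73 to 1.77% after cisplatin, and the 1.98 to 2.11% after vancomycin lay above all other samples. The single gene EEF1A1 took 0.593 to 0.629% of all counts in controls. It took 0.556 to 0.602% after iohexol, 0.482 to 0.502% after cisplatin and 0.853 to 0.947% after vancomycin. Much of the higher member share after vancomycin therefore lay in this gene. Levels are given as CPM (counts scaled to a common library size) after TMM scaling, the correction for library composition by edgeR, whose factors ranged from 0.885 in the vancomycin group to 1.13 in the cisplatin group. As a check of the cell type, 8 of 12 markers of proximal tubule and other epithelium were above 1 CPM in the control group (summed level 1623 to 1822 CPM, and 1489 to 2222 CPM over the drug groups). Of the proximal tubule's own genes, GGT1 had group means of 147 to 363 CPM, ANPEP and CUBN reached at most 5.05 and 2.21 CPM, and LRP2, SLC34A1 and AQP1 stayed under 1 CPM in every sample. Of markers of other cells, the 3 of fibroblasts and smooth muscle, nearly all COL1A1, summed to 25.8 to 35.1 CPM in controls, 22.6 to 25.6 after iohexol, 47.0 to 52.2 after cisplatin and 42.0 to 46.9 after vancomycin. The 3 podocyte markers, mostly PODXL, summed to 11.4 to 13.8 CPM in controls and to 8.02 to 9.89, 5.61 to 5.76 and 15.5 to 22.4 CPM in the same order of drugs. The endothelial markers summed to at most 4.21 CPM and the leukocyte markers to at most 3.69 CPM, and no erythroid marker exceeded 5 counts. The part of these differences in the results was not tested.

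Every value is relative to the rest of the library: fewer cells and less RNA per cell cannot be told apart in bulk samples, and a change shared by all genes does not show. Each drug was compared with the same 3 control samples by edgeR's quasi-likelihood test over all genes, with Benjamini-Hochberg adjustment. A gene is said to rise or fall where the adjusted p was under 0.05, and to be a differentially expressed gene (DEG) where its log2 fold change also exceeded 1 in size. Of the 67 members, 61 had enough counts to be tested with iohexol and cisplatin and 62 with vancomycin. The others were EIF4E1B and EEF1G with 0 counts in all samples, the readthrough genes EEF1E1-BLOC1S5 and EEF1AKMT4-ECE2 with at most 1 count and, except with vancomycin, EIF4EBP3. EIF1AY, on the Y chromosome, is counted among the 67 and is not described further.

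Per kilobase of gene model, EEF1A1 was the most abundant member in the control group, at 1056 ± 35.8 CPM per kb (SD, n = 3), followed by EEF2 at 476 ± 35.5. EEF1A2, the eEF1A paralogue best known from muscle and neurons, came next at 163 ± 1.69, and then EIF5A at 145 ± 13.6, EIF3I at 139 ± 4.04, EIF4H at 134 ± 20.8 and EEF1B2 at 134 ± 8.21. EEF1A1, EEF2 and EEF1A2 differed from their neighbours by more than these SDs, whereas EIF5A, EIF3I, EIF4H and EEF1B2 did not differ from each other beyond them. The 5 eIF2B subunits lay low, between 2.22 CPM per kb for EIF2B2 and 13.5 for EIF2B1, and the lysine methyltransferases of eEF1A and eEF2 between 1.39 and 3.67. In the vancomycin group EEF1A1 reached 1672 ± 111 CPM per kb and EEF2 647 ± 30.6, and EEF1A2, at 116 ± 1.73, came after EIF5A, EEF1B2, EIF1, EIF4H and EIF3I, at a level that EIF4EBP1 (119 ± 5.70) did not differ from beyond its SD.

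**Figure D1:**
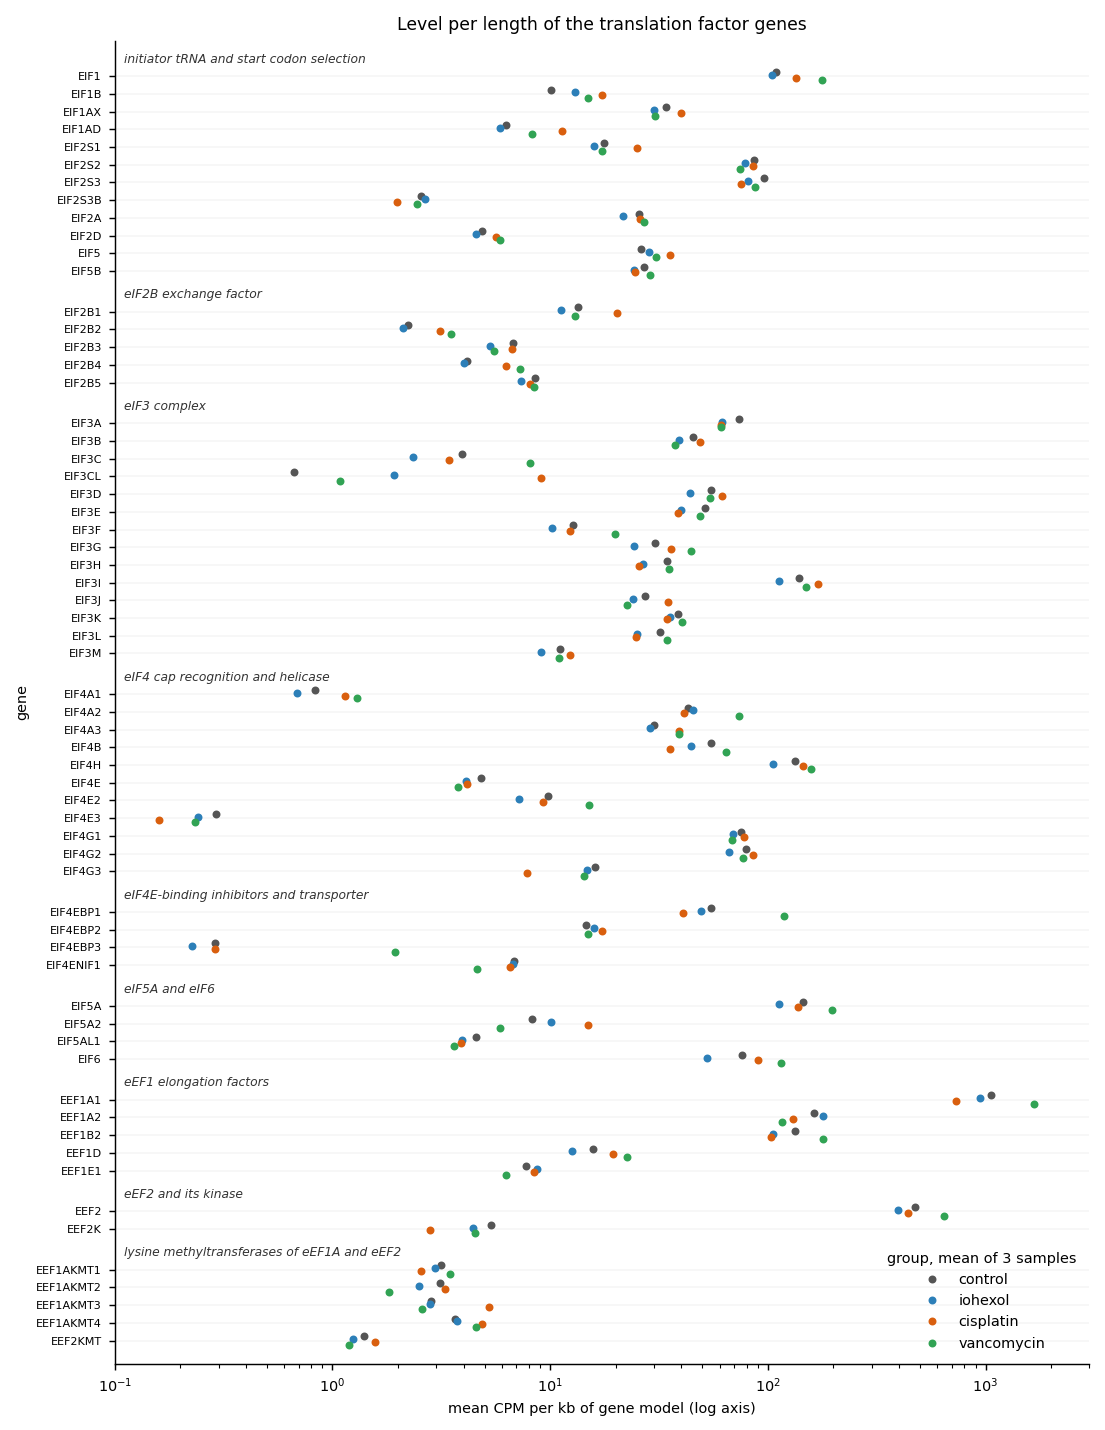
Mean CPM per kb of gene model (x axis, log scale) for the 62 members tested in at least 1 comparison, ordered by role, with 1 point per group (mean of 3 samples). EEF1A1 and EEF2 stand farthest to the right in every group, and in the control group EIF4EBP3, EIF4E3, EIF3CL and EIF4A1 lie farthest to the left.

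Some members could not be measured well by gene-level counting, and their rows need care. EEF1G, the gamma subunit of eEF1, shared 99.9% of its exon bases on the same strand with the row AP002990.1 and had 0 counts, while that row had only 7 to 40. EIF4A1, the main helicase of the cap complex, had only 41 to 147 counts; 48.6% of its exon bases were overlapped by other genes. EIF3L shared 41.1% of its exon bases on the same strand with the row AL022311.1, and 44.8% of its 31-base words with other genes. EIF3CL shared 98.9% of its 31-base words with EIF3C, and the counts of the pair moved between samples of the same group: EIF3C had 104, 121 and 1022 counts in the control samples, and EIF3CL had 59, 798 and 528 in the cisplatin samples. EIF3CL was called higher with every drug (log2 fold change 1.55 with iohexol, 3.78 with cisplatin and 0.68 with vancomycin), but its samples overlapped with the controls except with cisplatin, and it and EIF3C are taken as uncertain. EIF4B, EEF1B2, EEF1A1 and EIF5A shared 50.0, 49.1, 41.3 and 38.0% of their 31-base words with other genes, most of them with their own pseudogenes or, for EIF5A, with EIF5AL1. EEF1D, EIF4E2 and EIF2B2 were overlapped by genes of the opposite strand over 34.0, 24.2 and 23.6% of their exon bases, and the strand setting of the counting is not given in the sources used here. How much of these patterns comes from reads assigned between overlapping or near-identical genes was not tested.

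Iohexol shifted the members slightly downward. With this drug 1 member (EIF3CL) was called higher and 13 lower, 23.0% of the 61 tested, against 21.0% of all 15657 genes; the fallen members made up 21.3% of those tested, against 9.77% of all genes. EIF3CL was the only DEG, a label that 5.28% of all genes carried. The median log2 fold change was -0.19 for the members and 0.01 for all genes. In 22 of the 61 members tested the iohexol and control samples did not overlap, against 37.9% of all genes, counting both directions. Of these 22 members, 21 had all 3 iohexol samples below all 3 controls and 1 had them above. The share of all genes with iohexol samples below the controls was not counted. No count over a list chosen with earlier results known was tested, and the calls depended on single libraries: the count of members called was 0 without control replicate 2 and 22 without iohexol replicate 3.

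The largest falls with iohexol were those of EIF6, EIF4E2, EIF3H, EIF5A and EIF3E. The log2 fold change was -0.36 for EIF5A (adjusted p = 0.0290) and -0.35 for EIF3E (adjusted p = 0.0444). EIF6, which keeps free large ribosomal subunits from joining small ones, measured 103, 134 and 137 CPM in the controls and 95.5, 98.2 and 64.3 CPM with iohexol. Its groups did not overlap, with iohexol replicate 3 lowest (log2 fold change -0.52 ± 0.16 SE, adjusted p = 0.0375). EIF4E2, a cap-binding homologue that can repress translation, measured 67.2, 74.6 and 69.4 CPM in the controls and 55.8, 50.5 and 48.0 CPM with iohexol. Every iohexol sample lay below every control (-0.44 ± 0.10, adjusted p = 0.00839). Leaving out a single library took the call from EIF6, EIF4E2, EIF3H, EIF5A and EIF3E in at least 1 case each, and leaving out control replicate 2 took it from all of them.

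In the eIF3 complex, the scaffold of the initiation complex on the small subunit, 7 of 14 rows fell with iohexol (EIF3A, EIF3D, EIF3E, EIF3F, EIF3H, EIF3I and EIF3L), with a median of -0.29 for the role and EIF3CL as its only rise. Of all genes 9.77% fell with this drug, and the role was not tested as a group. EIF3H fell from 232, 225 and 209 CPM to 172, 164 and 178 CPM, with no overlap (-0.36 ± 0.08, adjusted p = 0.0105). EIF4B, EIF5A, EEF1B2 and EEF1D completed the list of falls. None of the 5 eIF2B subunits, the 5 lysine methyltransferases and the 12 factors of start codon selection that were tested passed the test with iohexol, and neither did EEF1A1 (-0.15 ± 0.07, adjusted p = 0.149), EEF2 (-0.24 ± 0.10, adjusted p = 0.116) or EEF2K (-0.25 ± 0.10, adjusted p = 0.108).

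**Figure D2:**
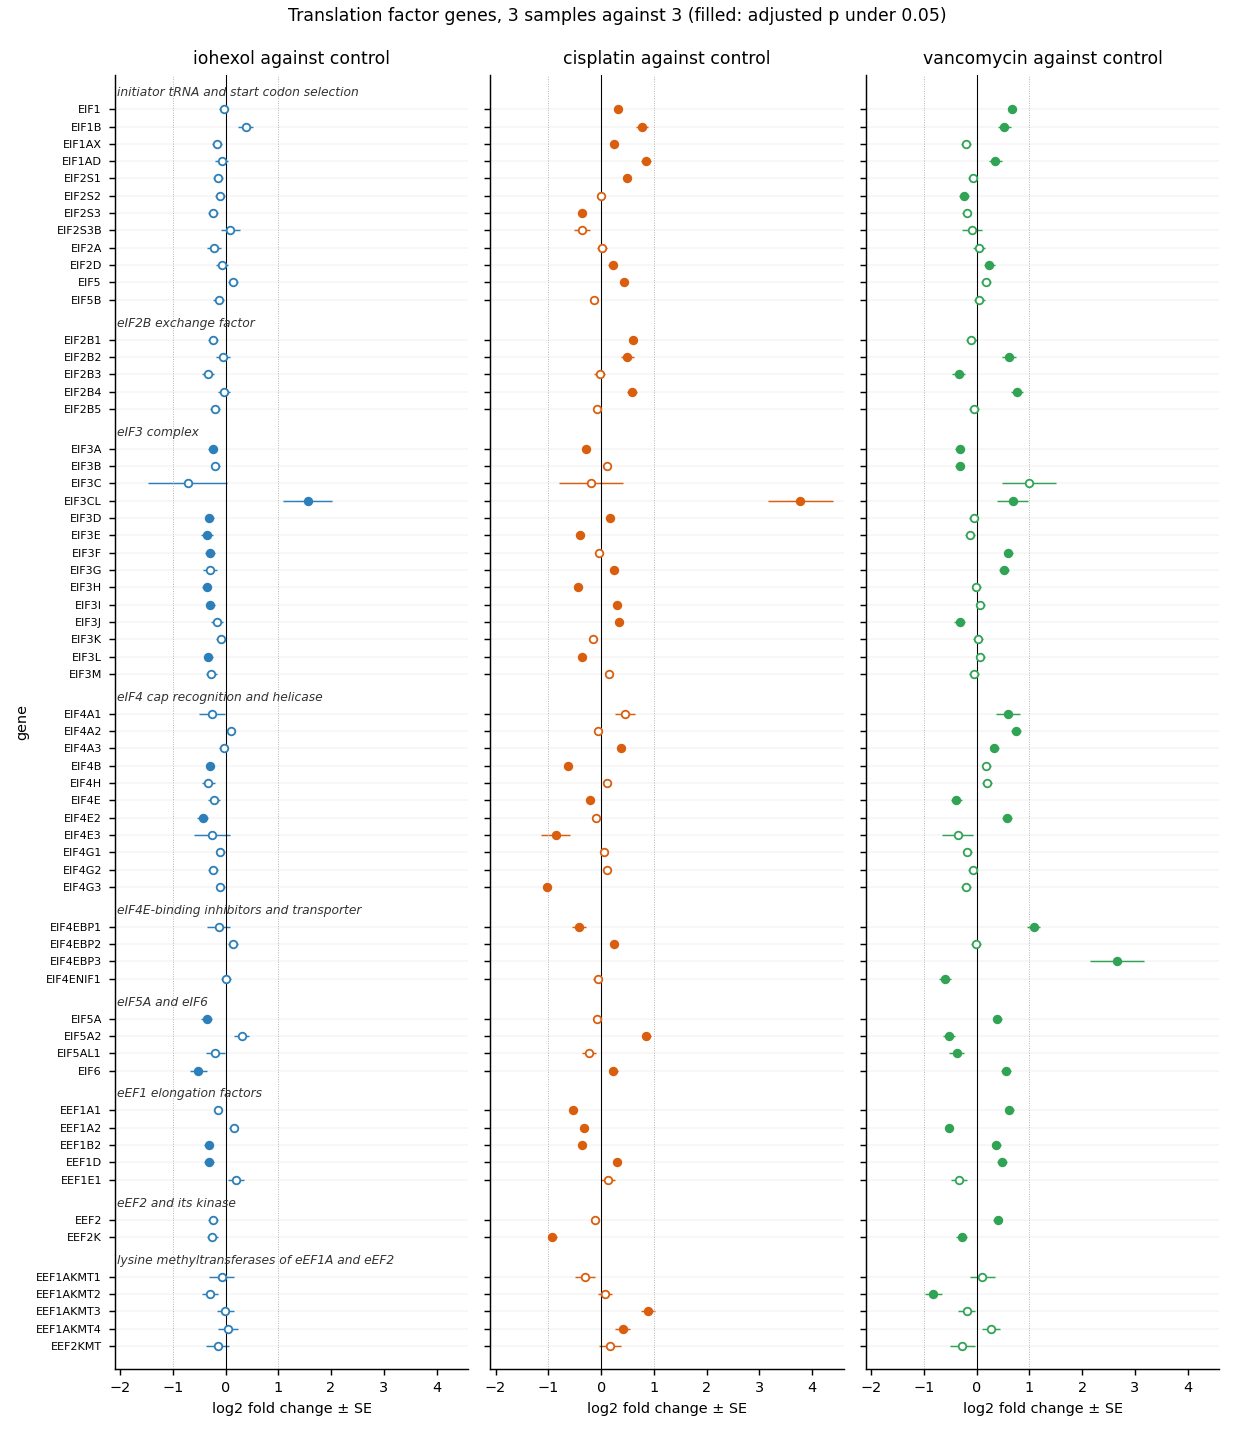
Log2 fold change against control (x axis, with its SE) of every tested member, in rows by role, for iohexol, cisplatin and vancomycin. Filled points passed an adjusted p under 0.05, and the dotted lines mark the DEG threshold of 1 in either direction. Most iohexol points lie just left of 0, whereas the cisplatin and vancomycin points spread to both sides.

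Cisplatin moved the members in both directions. With cisplatin 22 members rose and 14 fell, 59.0% of the 61 tested, against 59.8% of all 15876 genes (29.2% higher and 30.6% lower), so the share called was near the background. In 41 of the 61 members tested the cisplatin and control samples did not overlap, against 65.1% of all genes. The median log2 fold change was 0.06 for the members and 0.01 for all genes, and the median size of the change was 0.29 for the members and 0.41 for all genes. Scaling by the total count alone, which moved the median of all genes to 0.22, gave 33 members higher and 9 lower.

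The largest change with cisplatin outside EIF3CL was in EIF4G3, a homologue of the scaffold eIF4G1 that joins the cap-binding protein to the helicase. EIF4G3 (chr1:20806292-21176888, minus strand, GRCh38) measured 164, 144 and 153 CPM in the controls and 79.0, 73.1 and 74.1 CPM with cisplatin. The groups were far apart, with a 2.04-fold lower level and a log2 fold change of -1.03 ± 0.07 (adjusted p = 9.76e-10), and this made it a DEG, as 16.3% of all genes were; without control replicate 1 the value was -0.98, and under scaling by the total count alone -0.81, both short of the DEG threshold. The main scaffold EIF4G1 was not called (0.06 ± 0.06, adjusted p = 0.432); its value was -0.02 without control replicate 1 and 0.27 (adjusted p = 0.000854) under scaling by the total count alone. The counts of EIF4G3 per 100 counts of EIF4G1 went from 22.3 to 29.5 in the controls to 11.1 to 12.4 with cisplatin. In the other drug groups this ratio was 22.9 to 27.5, within the control range.

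EEF2K, the kinase that inhibits eEF2, fell with cisplatin from 40.4, 42.7 and 45.2 CPM to 21.8, 23.3 and 22.6 CPM. The cisplatin samples lay close together and far under the controls (-0.93 ± 0.09, adjusted p = 7.40e-08). Its substrate EEF2 was at 1753, 1990 and 2011 CPM in the controls and at 1777, 1781 and 1783 CPM with cisplatin, inside the control range (-0.11 ± 0.05, adjusted p = 0.0840), although without control replicate 1 it was called lower (-0.17, adjusted p = 3.44e-05) and scaling by the total count alone gave 0.11. EEF2K therefore went from 2.23 ± 0.0799 counts per 100 counts of EEF2 in the control group to 1.27 ± 0.0430 with cisplatin (SD, n = 3). This ratio was also lower with vancomycin, at 1.39 ± 0.127, and was 2.22 ± 0.153 with iohexol.

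Of the cap complex, EIF4B, which stimulates the helicase, fell from 344, 324 and 343 CPM to 220, 219 and 218 CPM with cisplatin. The fall was uniform across samples (-0.62 ± 0.06, adjusted p = 4.15e-08). EIF4E, the cap-binding protein, fell a little (-0.21 ± 0.08, adjusted p = 0.0326), a call that was lost without control replicate 1, cisplatin replicate 2 or cisplatin replicate 3 and became 0.0094 under scaling by the total count alone. EIF4E3, a low-level homologue at 3.14 ± 0.929 CPM in the controls, fell by 0.86 on the log2 scale (SE 0.27, adjusted p = 0.0115; 0.0831 without control replicate 1). EIF4A3, a helicase of the exon junction complex, was the only member of the cap and helicase role to rise with cisplatin (0.39 ± 0.06, adjusted p = 6.23e-05). EIF4EBP1, an inhibitor that binds eIF4E, fell (-0.42 ± 0.12, adjusted p = 0.00764), but its cisplatin samples (41.8, 45.0 and 45.0 CPM) overlapped with control replicate 1, at 42.7 CPM against 70.6 and 62.4 in the others; without control replicate 2 the adjusted p was 0.0671.

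In the role of initiator tRNA and start codon selection, 7 of 12 tested members rose with cisplatin and only EIF2S3, the gamma subunit of eIF2, fell (-0.36 ± 0.06, adjusted p = 0.000109). Of all genes 29.2% rose and 30.6% fell with this drug, and the role was not tested as a group. EIF1AD, listed in this role, is an eIF1A domain protein whose part in start codon selection was not tested. It measured 21.9, 21.1 and 19.5 CPM in the controls and 39.4, 36.8 and 36.4 CPM with cisplatin. Its samples were well apart (1.80-fold higher, 0.85 ± 0.09, adjusted p = 4.41e-07). EIF1B, a paralogue of the start codon factor eIF1, rose 1.71-fold (0.77 ± 0.11, adjusted p = 1.27e-05), EIF1 itself by less (0.31 ± 0.05, adjusted p = 6.22e-05), and EIF2S1, the alpha subunit of eIF2 that the stress kinases phosphorylate, rose from 105, 96.8 and 98.6 CPM to 142, 148 and 135 CPM (0.50 ± 0.07, adjusted p = 4.38e-06). EIF2S2, the beta subunit, was not called (-0.01 ± 0.07, adjusted p = 0.893).

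Of the 5 subunits of eIF2B, which reloads eIF2 with GTP, 3 rose with cisplatin, against 29.2% of all genes. EIF2B1, the alpha subunit, measured 49.9, 47.3 and 49.2 CPM in the controls and 71.8, 71.1 and 78.9 CPM with cisplatin. This was a 1.51-fold rise with no overlap (0.60 ± 0.07, adjusted p = 1.91e-06), and EIF2B4 (0.59 ± 0.10) and EIF2B2 (0.50 ± 0.13) rose by similar amounts. EIF2B5, the catalytic epsilon subunit, was not called (-0.08 ± 0.07, adjusted p = 0.344), nor was EIF2B3 (-0.03 ± 0.10, adjusted p = 0.833).

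The eIF3 complex did not move as a block with cisplatin. EIF3D, EIF3G, EIF3I, EIF3J and EIF3CL rose and EIF3A, EIF3E, EIF3H and EIF3L fell, between -0.44 for EIF3H and 0.35 for EIF3J outside EIF3CL. Of the methyltransferases, EEF1AKMT3, which modifies eEF1A, rose 1.84-fold (0.88 ± 0.13, adjusted p = 1.68e-05) from 7.69, 9.35 and 9.93 CPM to 15.2, 16.1 and 18.6 CPM. Of its exon bases 19.1% were overlapped by other genes, with METTL1 the largest part. EIF6 was called higher with cisplatin (0.23, adjusted p = 0.0233), a call that was lost without cisplatin replicate 1 or 2.

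EEF1A1 (chr6:73515750-73523797, minus strand, GRCh38) fell with cisplatin and rose with vancomycin. It measured 6501, 6263 and 6076 CPM in the controls, 5844, 5484 and 5441 with iohexol, 4324, 4294 and 4467 with cisplatin, and 9500, 10706 and 9631 with vancomycin. The 4 groups did not overlap, with cisplatin lowest and vancomycin highest. The log2 fold change was -0.53 ± 0.04 with cisplatin (adjusted p = 1.78e-08) and 0.62 ± 0.08 with vancomycin (adjusted p = 3.50e-07), and the direct difference between vancomycin and cisplatin was 1.19 ± 0.07 (2.28-fold, adjusted p = 4.45e-12).

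**Figure D3:**
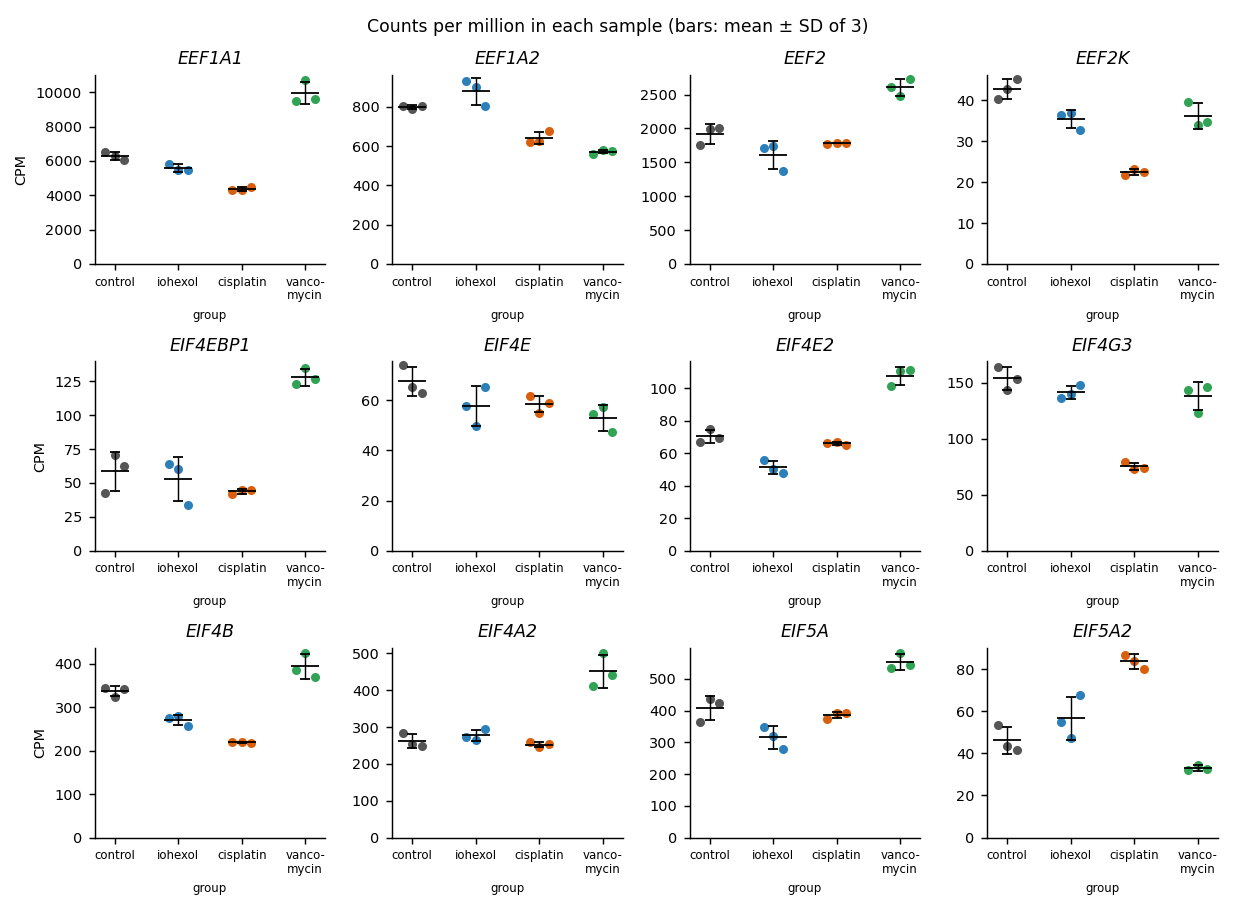
CPM in each of the 12 samples (points) with the mean and SD of each group of 3 (bars) for 12 members, on axes that start at 0. EEF1A1 is lowest with cisplatin and highest with vancomycin, EIF4G3 and EEF2K are lowest with cisplatin, and EIF4EBP1, EIF4E2 and EIF4A2 are highest with vancomycin.

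The processed pseudogene EEF1A1P5 (chr9:133019486-133020874), which is no member and was chosen after its values were seen, shares 91.2% of its 31-base words with EEF1A1. It had 964, 883 and 882 counts in the controls and 9939, 11198 and 10581 with vancomycin, 10.7-fold higher after scaling (3.43 ± 0.11, adjusted p = 1.09e-17). Per 100 counts of EEF1A1 this was 0.884 to 1.08 in the controls and 6.54 to 7.06 with vancomycin. The share of these counts that came from EEF1A1 transcripts was not tested.

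EEF1A2 moved differently from its paralogue. It measured 805, 790 and 803 CPM in the controls, 623, 627 and 675 CPM with cisplatin and 562, 578 and 574 CPM with vancomycin. It fell with both of these drugs (-0.32 ± 0.05, adjusted p = 5.09e-05, and -0.53 ± 0.08, adjusted p = 4.96e-06), although the fall with cisplatin was not called under scaling by the total count alone (-0.10, adjusted p = 0.0897). Per 100 counts of EEF1A1 there were 12.4 to 13.2 counts of EEF1A2 in the controls. The iohexol samples had 14.7 to 16.4, the cisplatin samples 14.4 to 15.1 and the vancomycin samples 5.39 to 5.96, so that the vancomycin group lay under all others and the cisplatin group, where both genes fell, slightly above the controls.

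With vancomycin 21 members rose and 12 fell, 53.2% of the 62 tested, against 57.9% of all 15819 genes (29.1% higher and 28.8% lower). In 31 of the 62 members tested the vancomycin and control samples did not overlap, a smaller share than the 63.2% of all genes. The rises included the abundant elongation factors, the start codon factor EIF1 and the eIF4E-binding protein EIF4EBP1, and the falls included EEF1A2, EIF5A2, EIF4E and EIF4ENIF1. The median log2 fold change was 0.03 for the members and -0.01 for all genes, and the median size was 0.32 for the members and 0.45 for all genes. Scaling by the total count alone gave 18 members higher and 17 lower.

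EIF4EBP1 had the largest rise with vancomycin among members with more than 100 counts per sample. It measured 42.7, 70.6 and 62.4 CPM in the controls, 63.7, 60.4 and 34.0 with iohexol, 41.8, 45.0 and 45.0 with cisplatin, and 123, 135 and 126 with vancomycin. The vancomycin samples lay above all others, while control replicate 1 and iohexol replicate 3 were low in their groups. The rise was 2.12-fold (1.08 ± 0.12, adjusted p = 6.27e-08) and made EIF4EBP1 a DEG, as 18.5% of all genes were; without control replicate 1 it was 0.90, under the DEG threshold. Against cisplatin the difference was 1.54 ± 0.17 (adjusted p = 1.89e-07).

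Its target moved the other way: EIF4E fell from 74.1, 65.2 and 62.9 CPM to 54.4, 57.3 and 47.2 CPM with vancomycin (-0.39 ± 0.10, adjusted p = 0.00244). There were thus 57.7 to 108 counts of EIF4EBP1 per 100 counts of EIF4E in the controls and 226 to 268 with vancomycin, with no overlap. The related inhibitor EIF4EBP2 was not called (-0.02 ± 0.09, adjusted p = 0.895). EIF4EBP3 had 2, 3 and 4 counts in the controls and 20, 21 and 22 with vancomycin and was called a DEG (adjusted p = 9.96e-05), but 73.4% of its exon bases lie in the readthrough gene ANKHD1-EIF4EBP3, and at these counts no fold change is given. EIF4ENIF1, which carries eIF4E into the nucleus, fell (-0.61 ± 0.11, adjusted p = 6.16e-05), and EIF4E2 rose from 67.2, 74.6 and 69.4 CPM to 101, 110 and 111 CPM (0.57 ± 0.09, adjusted p = 8.85e-06). EIF4E2 counts per 100 counts of EIF4E were 90.7 to 114 in the controls and 187 to 236 with vancomycin.

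EIF4A2, the helicase paralogue of EIF4A1, measured 283, 255 and 248 CPM in the controls and 413, 501 and 441 CPM with vancomycin, with no overlap (1.67-fold higher, 0.74 ± 0.09, adjusted p = 2.17e-07). EIF4A1 was called higher as well (0.59 ± 0.23, adjusted p = 0.0280), on the few counts given above and with overlapping samples, and the call was lost without control replicate 1 or vancomycin replicate 2 or 3. EIF4G1 was not called (-0.18 ± 0.09, adjusted p = 0.0853; 0.0141 without control replicate 1). EIF4B was at 344, 324 and 343 CPM in the controls and at 387, 426 and 370 CPM with vancomycin, above them in every sample but not called (0.18 ± 0.08, adjusted p = 0.0694).

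EEF2 measured 1753, 1990 and 2011 CPM in the controls and 2605, 2481 and 2727 CPM with vancomycin. All vancomycin samples were above all controls (0.40 ± 0.08, adjusted p = 0.000245). EEF2K fell at the same time (-0.29 ± 0.11, adjusted p = 0.0266), a call that was lost without control replicate 2 or 3 and without vancomycin replicate 2 or 3. EEF1B2 and EEF1D, subunits of the exchange factor of eEF1A, rose (0.37 ± 0.09, adjusted p = 0.000958, and 0.48 ± 0.09, adjusted p = 9.69e-05), while EEF1E1, named as an eEF1 factor but known from the aminoacyl-tRNA synthetase complex, was not called (-0.33 ± 0.15, adjusted p = 0.0543).

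EIF5A, which helps ribosomes over difficult peptide bonds, and its paralogue EIF5A2 moved apart. EIF5A measured 365, 438 and 423 CPM in the controls, 374, 391 and 393 CPM with cisplatin and 534, 581 and 542 CPM with vancomycin. EIF5A2 measured 53.5, 43.4 and 41.6 CPM in the controls, 86.9, 84.0 and 79.9 CPM with cisplatin and 32.1, 34.4 and 32.5 CPM with vancomycin. EIF5A rose with vancomycin (0.39 ± 0.09, adjusted p = 0.000475) and was not called with cisplatin (-0.08 ± 0.06, adjusted p = 0.265; 0.000887 without control replicate 1, at -0.16). EIF5A2 rose with cisplatin (0.86 ± 0.09, adjusted p = 2.70e-07) and fell with vancomycin (-0.53 ± 0.11, adjusted p = 0.000338). Counts of EIF5A2 per 100 counts of EIF5A were 9.82 to 14.7 in the controls and 14.9 to 24.3 in the iohexol samples. They were 20.3 to 23.2 in the cisplatin samples and 5.92 to 6.01 in the vancomycin samples. The difference in EIF5A2 between vancomycin and cisplatin was -1.34 ± 0.12 (adjusted p = 4.74e-09).

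EIF1 rose with vancomycin from 387, 403 and 390 CPM to 608, 690 and 636 CPM (1.59-fold, 0.67 ± 0.08, adjusted p = 2.66e-07), the largest change in the start codon role with this drug. EIF6 rose from 103, 134 and 137 CPM to 175, 195 and 195 CPM (0.55 ± 0.10, adjusted p = 4.60e-05). EIF2B4, the delta subunit of eIF2B, rose from 20.2, 23.5 and 23.0 CPM to 34.4, 40.8 and 41.2 CPM (0.76 ± 0.11, adjusted p = 4.85e-06), and EIF2B2 rose (0.62 ± 0.13), while EIF2B3 fell (-0.34 ± 0.12) and EIF2B1 and EIF2B5 were not called. The alpha subunit of eIF2, EIF2S1, was not called with vancomycin (-0.08 ± 0.09, adjusted p = 0.462). The largest fall with vancomycin was that of EEF1AKMT2, a methyltransferase of eEF1A at 11.2, 15.1 and 13.1 CPM in the controls and 8.07, 8.37 and 6.53 CPM with the drug (-0.82 ± 0.16, adjusted p = 0.000110).

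The comparisons share their controls, and some of the members called with more than 1 drug are set side by side here. Of the 61 members tested with all 3 drugs, 15 were called the same way with cisplatin and vancomycin. This was 24.6%, against 22.7% of all 15026 such genes. EEF1A1, EEF1B2 and EIF4EBP1 were called lower with cisplatin and higher with vancomycin, and EIF5A2 and EIF3J the other way; these 5 made up 8.20% of the 61 members tested with all 3 drugs, against 14.4% of all 15026 such genes. EEF1B2 had the values -0.37 and 0.37, and EIF3J 0.35 and -0.32. EIF3A was the only member called lower with all 3 drugs (-0.25, -0.28 and -0.32).

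Direct tests between drugs were made over 62 members and 17073 genes in a fit of all 12 samples. Cisplatin and iohexol differed in 36 members (31 higher with cisplatin, 5 lower), which was 58.1%, against 54.0% of all genes. Vancomycin and iohexol differed in 37 (32 higher with vancomycin, 5 lower), which was 59.7%, against 56.6%. Vancomycin and cisplatin differed in 41 members (22 higher with vancomycin, 19 lower), which was 66.1%, against 64.7% of all genes. The shares of all genes by direction were not counted for these pairs. Under scaling by the total count alone the split was 23 higher and 13 lower for vancomycin against iohexol and 11 higher and 32 lower for vancomycin against cisplatin. EIF3CL differed by 2.24 for cisplatin minus iohexol and by -3.05 for vancomycin minus cisplatin, EIF3C by 1.78 for vancomycin minus iohexol, and EIF4EBP3 was called higher with vancomycin than with either other drug, but the counts of these 3 genes are uncertain. Apart from them the largest differences were those of EIF1AD (0.94 ± 0.11) and EIF4G3 (-0.91 ± 0.08) for cisplatin minus iohexol, and of EIF4EBP1 (1.28 ± 0.17) for vancomycin minus iohexol. For vancomycin minus cisplatin they were EIF4EBP1 and EIF5A2, given above.

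Many mRNAs of ribosomal proteins and translation factors are known to begin with a C followed by an unbroken run of pyrimidines, the 5′ terminal oligopyrimidine (TOP) motif, through which mTORC1 and LARP1 control their translation. Transcript starts of 53 members were present in the RefSeq promoter table (GRCh38.p14). Of these members 13 had a start at a C followed by at least 4 more pyrimidines, here called a pyrimidine start. A member with several starts was counted if any of them had the run. By window rather than by gene, 1429 of the 35116 windows of that table had it (4.07%). By gene, 765 of the protein-coding genes tested with iohexol had it and 9562 did not. Only the given strand was read, and a match is a description of the annotated start, not of the start used in these cells. The windows of the 8 members with the run that rose with vancomycin or fell with cisplatin follow, to show the run, each with 10 bases before the annotated start and the first 20 transcribed bases, and the pyrimidine run from the start is in capitals. EEF1B2 has a second annotated start without the run.
EEF1A1 (chr6:73521013-73521042, minus strand): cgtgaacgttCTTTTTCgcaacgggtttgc
EEF1B2 (chr2:206159885-206159914, plus strand): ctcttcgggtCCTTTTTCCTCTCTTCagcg
EEF2 (chr19:3985444-3985473, minus strand): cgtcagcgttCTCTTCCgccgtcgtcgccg
EIF2D (chr1:206612446-206612475, minus strand): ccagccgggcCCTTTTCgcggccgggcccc
EIF2S3 (chrX:24054946-24054975, plus strand): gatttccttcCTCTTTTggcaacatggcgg
EIF3F (chr11:7987327-7987356, plus strand): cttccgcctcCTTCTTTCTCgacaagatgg
EIF4A2 (chr3:186783567-186783596, plus strand): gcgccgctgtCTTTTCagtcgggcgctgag
EIF4B (chr12:53006446-53006475, plus strand): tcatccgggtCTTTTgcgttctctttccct

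Members that rose with cisplatin include both kinds of start: EIF2D, shown above, and EIF3D have the run, and EIF5A2 and EIF2S1 are examples of those without it.
EIF3D (chr22:36529147-36529176, minus strand): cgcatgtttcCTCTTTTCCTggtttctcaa
EIF5A2 (chr3:170908618-170908647, minus strand): cccgtctcttggaactgccgcggccgccac
EIF2S1 (chr14:67360318-67360347, plus strand): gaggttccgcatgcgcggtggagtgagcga

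Of the 13 members with a pyrimidine start, 6 rose and 0 fell with vancomycin (EEF1A1, EEF1B2, EEF2, EIF2D, EIF3F and EIF4A2; median 0.18), while of the 36 others with an annotated start 11 rose and 9 fell (median -0.03). With cisplatin 2 rose (EIF2D and EIF3D) and 4 fell (EIF4B, EEF1A1, EEF1B2 and EIF2S3; median -0.11), against 16 rises and 4 falls among 35 others (median 0.13). With iohexol 0 rose and 4 fell among the 13 (median -0.23) and 0 rose and 4 fell among the 35 (median -0.17). Over all protein-coding genes tested with an annotated start, those with a pyrimidine start had medians of 0.12 with vancomycin, -0.12 with cisplatin and -0.04 with iohexol, and the others of -0.00059, -0.03 and -0.01. Of these genes with a pyrimidine start 38.2% rose and 24.8% fell with vancomycin, against 30.7 and 30.4% of the others. The shares were 23.6 and 41.0% against 29.1 and 34.6% with cisplatin, and 10.1 and 16.5% against 11.0 and 10.5% with iohexol. The members with a pyrimidine start lay on the same side of the others as in all genes with each drug, and no test was made of the groups.

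**Figure D4:**
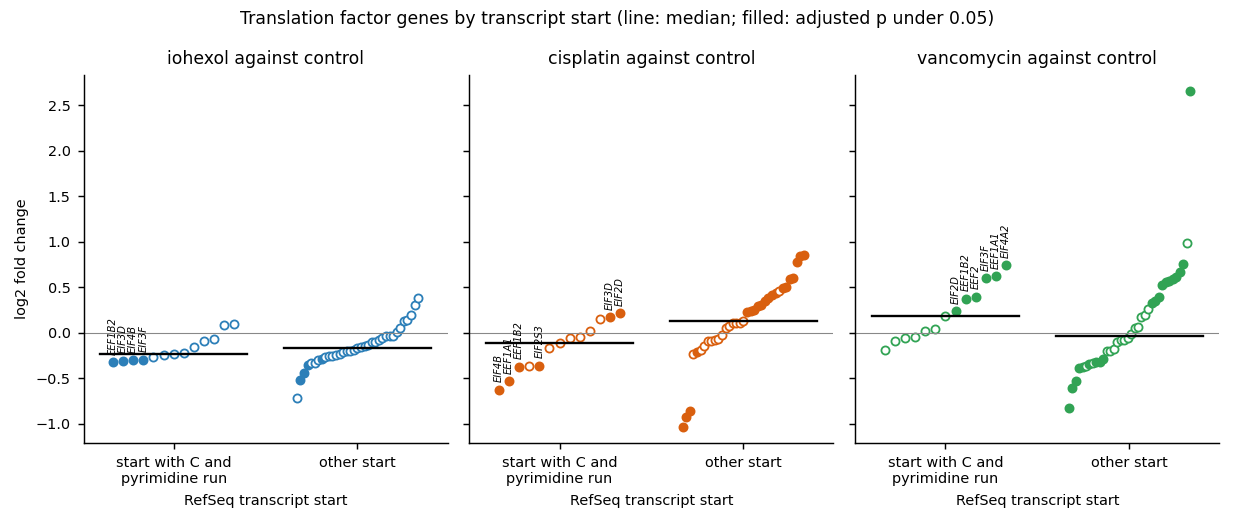
Log2 fold change against control (y axis) of members with an annotated RefSeq transcript start, split into the 13 that begin with a C and at least 4 more pyrimidines and the others, for each drug. Horizontal lines are medians, filled points passed an adjusted p under 0.05, and called members with the run are named. The median line of the left group is above that of the right group only with vancomycin.

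Members that span more of the genome had lower values with cisplatin. Over 61 members, Spearman's correlation of span with the cisplatin log2 fold change was -0.47, the same as over 12979 protein-coding genes (-0.47), and with vancomycin it was -0.44 over 62 members and -0.28 over 13174 genes. The points share libraries, and the correlation is a description across genes. Of the 4 members over 100 kb, EIF4G3, EIF3E and EIF3H fell with cisplatin and EIF2B3 did not (-0.03), and of all protein-coding genes over 100 kb 71.8% fell, against 25.9% of shorter genes. EEF2K and EIF4E3, next in size among those tested at 82.5 and 79.4 kb, had the largest falls after EIF4G3, whereas EIF1B, at 2.74 kb, was among the largest rises. EEF1A1 (8.05 kb) and EEF1B2 (3.34 kb) fell although they are short.

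**Figure D5:**
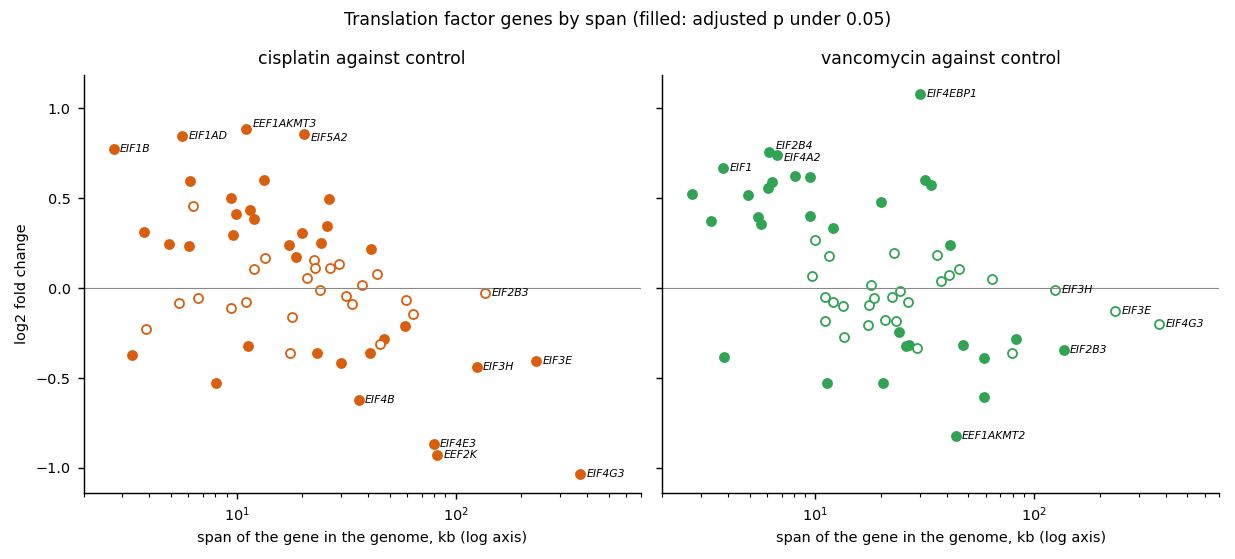
Log2 fold change against control (y axis) by the span of the gene in kb (x axis, log scale) for members with cisplatin and with vancomycin, without EIF3C, EIF3CL and EIF4EBP3. Filled points passed an adjusted p under 0.05. With cisplatin the 3 lowest points (EIF4G3, EEF2K and EIF4E3) span 79.4 to 371 kb.

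The partner genes of the factors were counted in 6 lists of 52 genes, all of which were tested. With iohexol 4 rose and 3 fell, with cisplatin 13 rose and 19 fell, and with vancomycin 16 rose and 16 fell. These were 13.5, 61.5 and 61.5% of the partners, against 21.0, 59.8 and 57.9% of all genes, so the shares with cisplatin and vancomycin were near the background. The spans of the partner genes were not set beside their values, and of all protein-coding genes over 100 kb 71.8% fell with cisplatin. Of 7 eIF2 alpha kinases and phosphatase subunits, PPP1R15A, the stress-induced subunit that directs the dephosphorylation of eIF2 alpha, was at 50.7 ± 8.55 CPM in the controls (SD, n = 3), rose to 144 ± 6.79 CPM with cisplatin (1.50 ± 0.09 on the log2 scale), rose further above the controls with vancomycin, at 258 ± 21.8 CPM (2.30 ± 0.11), and was not called with iohexol (0.33 ± 0.17, adjusted p = 0.202). EIF2AK3 (PERK), the kinase of endoplasmic reticulum stress, rose with iohexol (1.22 ± 0.09) and vancomycin (0.44 ± 0.10) and fell with cisplatin (-0.78 ± 0.08).

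Of the 12 genes of mTORC1 and its inputs, 0 were called with iohexol, 3 rose and 5 fell with cisplatin, and 5 rose and 3 fell with vancomycin (66.7% called with each of the last 2, against the same 59.8 and 57.9%). MTOR itself fell with cisplatin (-0.42 ± 0.06) and vancomycin (-0.53 ± 0.09), RPTOR fell with both (-0.96 ± 0.09 and -0.38 ± 0.11), and DDIT4, an inhibitor of mTORC1 induced by stress, fell with cisplatin by 1.99 on the log2 scale (SE 0.08). Among 8 eIF4 partners, PABPC1, the main poly(A)-binding protein, fell with cisplatin (-0.32 ± 0.05) and vancomycin (-0.63 ± 0.08).

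Hypusine, the modified lysine that eIF5A needs, is made by DHPS and DOHH, and diphthamide, a modified histidine of eEF2, by the DPH enzymes. Of these 9 genes 4 rose and 2 fell with cisplatin, 3 rose and 2 fell with vancomycin, and 1 fell with iohexol, which was 66.7, 55.6 and 11.1% of the list against 59.8, 57.9 and 21.0% of all genes. DOHH rose with cisplatin (1.25 ± 0.09), and DPH6 fell with all 3 drugs (-0.94 ± 0.21 with iohexol, -2.44 ± 0.24 with cisplatin and -0.55 ± 0.21 with vancomycin). Of 7 genes of termination, recycling and reinitiation, 0 rose and 4 fell with cisplatin, among them the selenocysteine elongation factor EEFSEC (13.2 to 1.49 CPM, -3.15 ± 0.21), and 0 rose and 3 fell with vancomycin, among them the recycling factor ABCE1 (-1.01 ± 0.10). With iohexol GSPT1 of this list rose (0.61 ± 0.11) and DENR fell (-0.33 ± 0.09). The shares called were 57.1% with cisplatin, 42.9% with vancomycin and 28.6% with iohexol, against 59.8, 57.9 and 21.0% of all genes. Of 9 mitochondrial translation factors 0 were called with iohexol, 3 rose and 2 fell with cisplatin, and 2 rose and 4 fell with vancomycin. These were 55.6% of the list with cisplatin and 66.7% with vancomycin, against the same 59.8 and 57.9% of all genes.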

How the data were processed

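RNA of 12 HK-2 cell samples was sequenced as bulk RNA-seq. Per the labels, the authors used CASAVA 1.8, fastp, HISAT2 2.0.5, featureCounts 1.5.0-p3 and DESeq2 1.20.0, and the deposited table holds raw read counts per gene, which were used as deposited. The annotation release and the strand setting of the counting are not given in the sources used here, and the 58735 identifiers with their positions match GENCODE 29 on GRCh38.

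Samples were grouped by the labelled treatment. For each drug, its 3 samples and the 3 controls were fitted on their own with edgeR 4.0.16 in R 4.3.3 (filterByExpr with a minimum count of 10 and a minimum total of 15, TMM factors, two-sided quasi-likelihood test, Benjamini-Hochberg adjustment over all genes). Drugs were compared with each other in 1 fit of all 12 samples. The methods of the study used limma, and limma-voom was an alternative (limma 3.58.1), as were DESeq2 1.42.0, other scalings and filters, a replicate block and leaving out each sample. Libraries of 14057282 to 18177109 counts make 3 counts equal to 0.177 to 0.218 CPM. This floor of 3 counts covers counting error only. On simulated counts for vancomycin against control, with 15583 genes, 44 of 100 genes changed by 0.5 (log2) and 99 of 100 changed by 1 were recovered, and 9 others were called. The simulation gave all genes the same dispersion (spread between samples beyond counting error) and changed no gene with a low expected count. It therefore does not describe members with few counts or the uneven spread of the real samples.

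The members and the gene lists were chosen with earlier results of these data known, so counts over them are descriptions. Genes for full statistics were chosen by a rule: for each drug the 5 members called higher and the 5 called lower with the largest change, a set of core factors and paralogues (EIF4E, EIF4EBP1, EIF4G1, EIF4A1, EIF4A2, EIF2S1, EIF2B5, EIF1, EIF5A, EIF5A2, EIF6, EEF1A1, EEF1A2, EEF2 and EEF2K), and for each pair of drugs the 3 called members with the largest difference. Some of their main values, such as those of EIF4E and EEF1A2 with iohexol and of EIF4A1 and EIF4A2 with cisplatin, are not printed above. Other members are named by role. Sequences come from RefSeq (GRCh38.p14).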

Additional observations from a re-analysis of the deposited data

How the results depend on the processing

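The counts of members called with cisplatin and vancomycin stayed within 1.5 times their value under every alternative run, while the iohexol count did not: it went from 14 to 6 under scaling by the total count alone, to 2 with the replicate number as a block and to 23 in 1 fit of all 12 samples, and ranged from 0 (without control replicate 2) to 22 (without iohexol replicate 3) when 1 sample was left out. With 1 sample left out, the cisplatin count was 32 to 40, the vancomycin count 26 to 33, and those of the drug pairs ranged from 32 to 37 (cisplatin and iohexol), 30 to 35 (vancomycin and iohexol) and 30 to 38 (vancomycin and cisplatin). Scaling by the total count alone brought the median of all genes to 0.08, 0.22 and -0.08 with iohexol, cisplatin and vancomycin, and the members' higher and lower calls to 2 and 4, 33 and 9, and 18 and 17.

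Members that were DEGs numbered 0 with iohexol under DESeq2, limma-voom and the fit of 12 samples (0 to 1 with a sample left out), 4 with cisplatin under the total count (1 to 4) and 1 with vancomycin at 10 counts or more in every sample (1 to 3). The median log2 fold change of members with iohexol became -0.12 under the total count and -0.23 without a filter (-0.20 to -0.13 with a sample left out). With cisplatin it became 0.27 under the total count, 0.013 without a filter, 0.083 at 10 counts or more, 0.079 with limma-voom, 0.081 with the block and 0.038 in the fit of 12 samples (-0.0014 to 0.062), and with vancomycin -0.046 under the total count (-0.040 to 0.077).

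Of the named members' values under the alternatives, 766 kept their direction and side of the threshold, 59 lost the call, 17 gained one and 11 reversed. The reversals under the total count were EIF1 with iohexol (0.035) and, with cisplatin, EIF4E (0.0094), EIF4A2 (0.16), EIF2B5 (0.14), EIF5A (0.13) and EEF2 (0.11). With a sample left out EIF4EBP1 with iohexol ranged from -0.32 to 0.10 (0.0067 without control replicate 2), EIF1 with iohexol from -0.093 to 0.00017, EIF4G1 with cisplatin from -0.018 to 0.088, and EIF2B5 with vancomycin from -0.076 to 0.0053. The cause of these changes was not tested.

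Samples with the same replicate number did not deviate together (mean r -0.0209 over 18 pairs, against 0.0107 over 36 pairs with different numbers), so the numbers were not taken as pairs. With the replicate block 39 members were called with cisplatin and 41 with vancomycin. Depth limits members under a few CPM, such as EIF4E3 and EIF4EBP3.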
